A study of Arabidopsis thaliana with 8 samples.

Results

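The comparison set seedlings of Arabidopsis thaliana that had lost both MOM1 and PIAL2 (mom1pial2) against seedlings that had lost MOM1 alone (mom1), which asks what the loss of PIAL2 added when MOM1 was already missing. All plants were Col-0 seedlings, 10 days old, grown on MS medium plates with 16 h of light and 8 h of dark at 22 °C, and oligo(dT)-enriched RNA was sequenced. The series holds 8 libraries, namely 1 each of mom1pial2, pial2, pial1/2 and nrpe1, 2 of mom1 and 2 of wild type (WT). The alleles behind these genotypes are not stated in the sources used here. The mom1pial2 library and mom1 replicate 2 were each tabulated by the authors against WT replicate 2, so that taking the difference of their log2 ratios to WT removed WT from the result. The pial2 library has the same WT partner, while mom1 replicate 1, pial1/2 and nrpe1 were tabulated against WT replicate 1. Of 34133 entries in each table, 19883 had at least 1 FPKM (fragments per kilobase of transcript scaled to library size, the authors' expression unit) in mom1pial2 or mom1 replicate 2, and these genes were compared. Values of different tables were scaled separately by the authors, and levels of WT replicate 2 are those of the mom1pial2 table. With 1 library of mom1pial2 there is no spread between replicates for that group, and the differences below are given without an error unless a test is named. Fewer cells of a type and less RNA per cell cannot be told apart in RNA from whole seedlings.

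MOM1 is a nuclear protein that keeps transposons and repeats silent, mostly without altering their DNA methylation. PIAL1 and PIAL2 resemble SUMO E3 ligases and are, per the title of the study, partners of MOM1 in a silencing complex. RNA-directed DNA methylation, which needs the RNA polymerase V subunit NRPE1, is a separate route that silences many of the same kinds of loci.

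The mutated genes were read first. MOM1 (AT1G08060, chr1:2501742-2511084, TAIR10) had 1.29 FPKM in mom1pial2, 1.15 in mom1 replicate 2 and 1.61 in mom1 replicate 1, against WT levels of 4.99 (replicate 2) and 6.10 (replicate 1). MOM1 was therefore low in all 3 libraries that carry mom1, and the difference between mom1pial2 and mom1 replicate 2 was 0.07 on the log2(FPKM + 1) scale. PIAL2 (AT5G41580, chr5:16626337-16630783) had 2.13 FPKM in mom1pial2, against 4.62 in mom1 replicate 2 and 6.47 in mom1 replicate 1. It had 1.96 FPKM in pial2, against 5.53 in WT replicate 2. The 2 libraries labelled for pial2 alone or with mom1 were the lowest of all 8 for PIAL2, while pial1/2 had 4.79 FPKM, against 6.51 in WT replicate 1. The difference of PIAL2 between mom1pial2 and mom1 replicate 2 was -0.87, and it was -1.06 with mom1 replicate 1 as the reference. PIAL1 (AT1G08910) had 7.72 FPKM in mom1pial2 and 7.96 in mom1 replicate 2.

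Transposons and pericentromeric loci that MOM1 silences stood at nearly the same level in mom1pial2 and in mom1 replicate 2. The loci were taken from the authors' deposited table of mom1 replicate 1, whose libraries have no part in the difference. There, 222 entries (0.999% of those tested) had a q-value under 0.05 and a higher level in mom1. Of these 222 entries, 161 reached 1 FPKM in mom1pial2 or mom1 replicate 2, and their median difference was 0.03 with a middle range of -0.17 to 0.24, beside a median of 0.00 and a middle range of -0.12 to 0.12 over all 19883 genes. None of the 161 was at least 2-fold higher in mom1pial2 and 6 were at least 2-fold lower. Over all genes compared, 0.513% were at least 2-fold higher and 0.563% at least 2-fold lower. The 6 were DIP2, PR1, HAI1, ABI1, HAI2 and AT1G73480, and none of them belongs to the transposon class (entries with the biotype pseudogene). The 56 measured entries of that class had a median log2 ratio to WT replicate 2 of 1.81 in mom1pial2 and 2.00 in mom1 replicate 2, with differences from -0.72 to 0.61. The 29 other pericentromeric entries had a median log2 ratio of 1.68 in mom1pial2 and 1.78 in mom1 replicate 2, and PR1 is among them. The remaining 76 lie on the chromosome arms and were not generally high in this set of libraries, with a median log2 ratio of -0.03 in mom1pial2 and 0.15 in mom1 replicate 2. Of the 6 lower genes 5 are on the arms. For the 42 measured entries that were at least 4-fold up in mom1 replicate 1, the median log2 ratio to WT replicate 2 was 3.12 in mom1pial2 and 3.12 in mom1 replicate 2, and the median difference was 0.00. With mom1 replicate 1 as the reference the 161 genes had a median of -0.49, but they were chosen for being high in that library.

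Most single loci described here showed the same picture over a wide range of levels, while AT2G11778 and AT2G15810 were lower in mom1pial2. AT2G11778 (chr2:4728072-4728239, a locus of 168 bases) was the most abundant of those described here. It had 2238 FPKM in mom1pial2, 3126 in mom1 replicate 2 and 1286 in mom1 replicate 1, against WT levels of 16.8 (replicate 2) and 1.87 (replicate 1). As a ratio to WT it was lower than in both mom1 libraries, with differences of -0.51 to replicate 2 and -1.83 to replicate 1. AT2G11780, a pseudogene of the same region of chromosome 2, had 98.1 FPKM in mom1pial2 and 98.1 in mom1 replicate 2, against 0.23 in WT replicate 2. AT4G04293 had 209 FPKM in mom1pial2, 202 in mom1 replicate 2 and 420 in mom1 replicate 1, against 1.43 in WT replicate 2. Both were near 0 in WT. AT3G29639 had 322 FPKM in mom1pial2 and 358 in mom1 replicate 2, against 2.14 in WT replicate 2. AT3G42353 had 65.2 FPKM in mom1pial2 and 64.3 in mom1 replicate 2, against 0.24 in WT replicate 2. On chromosome 5, AT5G35480 had 826 FPKM in mom1pial2 and 705 in mom1 replicate 2, and its neighbour MRU1 had 116 FPKM in mom1pial2 and 97.0 in mom1 replicate 2. In pial2, AT5G35480 had 388 FPKM, against 46.8 in WT replicate 2, and MRU1 had 60.5 FPKM, against 8.67 in WT replicate 2. AT4G04293 had 21.6 FPKM and AT3G29639 had 11.8 FPKM in pial2, so these loci too stood above WT there. They do not stand for all entries called up in mom1 replicate 1. The 56 measured ones of the transposon class had a median log2 ratio of 0.002 in pial2 over WT replicate 2. Of these, 29 were above 0 and 13 below. For the 42 that were at least 4-fold up in mom1 replicate 1, the median in pial2 was 0.20. AT2G15810 was lower in mom1pial2, with 56.0 FPKM, against 74.0 in mom1 replicate 2 and 118 in mom1 replicate 1. The overlapping entries AT2G15790 (SQN, a cyclophilin) and AT2G15800 share 1 interval, so reads could be split between them, and they had 209 and 74.4 FPKM in mom1pial2, against 226 and 71.2 FPKM in mom1 replicate 2.

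Silenced protein-coding genes varied more, in both directions. SDC (AT2G17690), an F-box gene silenced through promoter repeats, had 47.0 FPKM in mom1pial2, 39.0 in mom1 replicate 2 and 63.2 in mom1 replicate 1, against 0.36 in WT replicate 2. PUM9, a Pumilio-type RNA-binding protein gene, had 6.56 FPKM in mom1pial2, 4.14 in mom1 replicate 2 and 8.50 in mom1 replicate 1, against 0.07 in WT replicate 2. QQS, a starch-related orphan gene, had 14.7 FPKM in mom1pial2, 23.2 in mom1 replicate 2 and 39.9 in mom1 replicate 1, against 6.19 in WT replicate 2. The differences to mom1 replicate 2 and to mom1 replicate 1 were 0.25 and -0.22 for SDC, 0.55 and -0.29 for PUM9, and -0.65 and -1.02 for QQS. The ratio in mom1pial2 thus lay between those of the mom1 replicates for SDC and PUM9 and below both for QQS. FWA stayed under 0.10 FPKM in both mutants and was not compared.

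**Figure D1:**
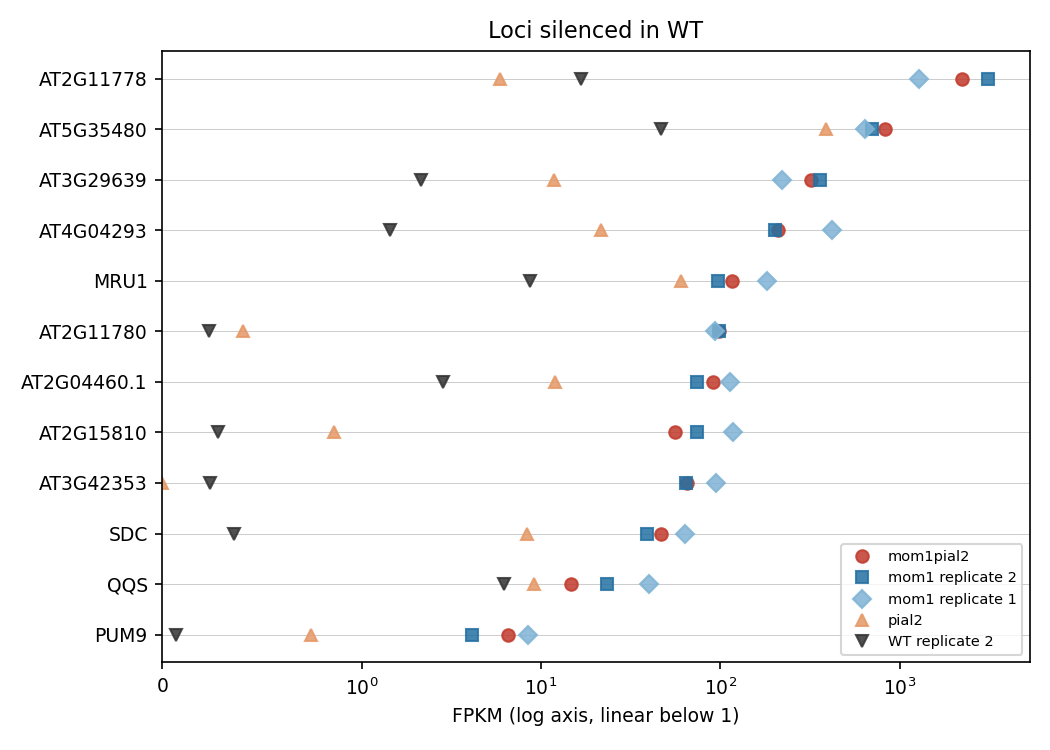
FPKM of 12 loci silenced in WT (rows) in mom1pial2, mom1 replicate 2, mom1 replicate 1, pial2 and WT replicate 2, on an axis that is logarithmic above 1 and linear below. The red circles of mom1pial2 lie on or beside the dark blue squares of mom1 replicate 2, for example 98.1 and 98.1 FPKM at AT2G11780, while WT replicate 2 is to the left.

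The wider class of transposons had a median at 0, and loci called up in nrpe1 stood slightly higher against mom1 replicate 2. The transposon class holds 4483 entries, of which 169 were measured, with a median difference of 0.00. In that class 1 entry was at least 2-fold higher and 5 were at least 2-fold lower, and 4 of the 5 were listed at 0 in mom1pial2 with 1.0 to 22.5 FPKM in mom1 replicate 2. The highest of these, AT3G42090.1, was listed at 0 in WT replicate 2 as well and had 22.8 FPKM in pial2. The other 1461 measured pericentromeric genes had a median of 0.01. Of the entries higher at a q-value under 0.05 in pial1/2, by the authors' deposited table (0.70% of those tested), 128 were measured, and they had a median difference of 0.05 with 0 at least 2-fold higher and 1 lower. For nrpe1 the authors' deposited table gave 1.2% of those tested, and the 207 measured had a median of 0.15, with 150 (72.5%) above 0 where 50.5% of all genes were, and 6 at least 2-fold higher and 1 lower. Of those 6, AT3G48131, RSU1 and AT1G33850 lie at loci under 300 bases, and 3 remain at longer loci, namely AT1G14960, AT5G37990 and AT3G22235. Of the 207, 9 reached 1 FPKM through mom1pial2 alone and 3 through mom1 replicate 2 alone, which fixes their sign. AT3G48131 and AT1G33850, both listed at 0 in mom1 replicate 2, are among the 9. Over the same genes, with mom1 replicate 1 as the reference, the median was -0.20 for the pial1/2 entries and -0.22 for the nrpe1 entries, so their sign turned with the mom1 replicate.

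The genes that encode the silencing machinery were level. Of 56 measured genes that act in the SUMO pathway, in DNA demethylation, in heterochromatin upkeep or in RNA-directed DNA methylation, 0 differed by 2-fold, and the differences ran from -0.42 to 0.27. DML3, a demethylase gene, was the lowest, with 0.98 FPKM in mom1pial2 and 1.62 in mom1 replicate 2. CHR38, a chromatin remodeller gene, was the highest, with 2.69 FPKM in mom1pial2 and 2.02 in mom1 replicate 2. SIZ1, the main SUMO E3 ligase of Arabidopsis, had 27.1 FPKM in mom1pial2 and 27.2 in mom1 replicate 2. AGO4, the effector of the RNA-directed pathway, had 18.4 FPKM in mom1pial2 and 17 in mom1 replicate 2. DML1, the demethylase also called ROS1, had 15.2 FPKM in mom1pial2 and 12.4 in mom1 replicate 2.

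**Figure D2:**
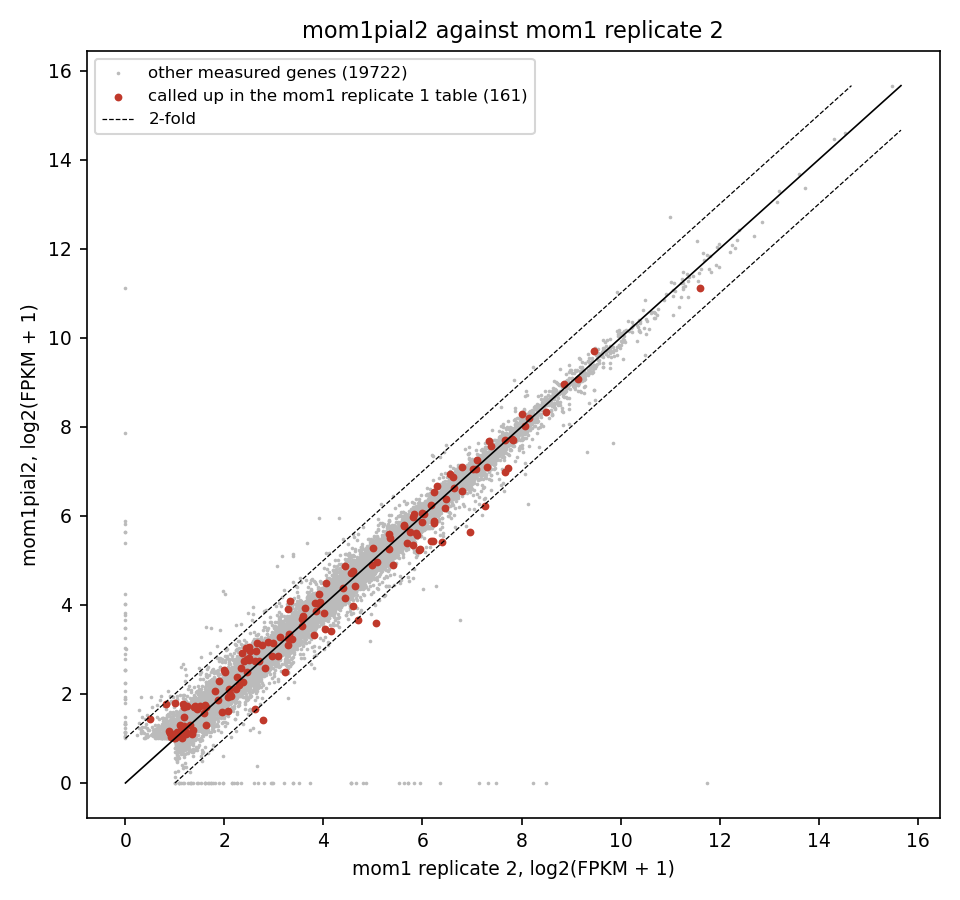
Level of each of the 19883 measured genes in mom1pial2 (vertical axis) and in mom1 replicate 2 (horizontal axis), both as log2(FPKM + 1), with the 161 genes called up in the mom1 replicate 1 table in red and dashed lines at 2-fold. The red points follow the diagonal, and points on the axes are genes listed at 0 in 1 of the libraries.

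Across all genes the libraries were close. Of the 19883 genes, 102 (0.513%) were at least 2-fold higher in mom1pial2 than in mom1 replicate 2 and 112 (0.563%) were at least 2-fold lower, and 96.7% lay within 1.5-fold. For scale, pial2 over WT replicate 2 gave 0.736% higher and 0.847% lower. The ratio in mom1 replicate 2 over that in mom1 replicate 1 gave 0.941% higher and 1.39% lower. That comparison keeps both WT libraries and spans both sets of libraries, so it is not the spread of mom1 alone. With mom1 replicate 1 as the reference, mom1pial2 had 0.977% of genes at least 2-fold higher and 1.35% lower. Of the 102 higher genes 48, and of the 112 lower genes 44, were also past 2-fold against mom1 replicate 1. Both comparisons use the same mom1pial2 ratio, so the mom1pial2 side is not replicated by this overlap. The mom1pial2 ratio was tested against both mom1 ratios with limma, which takes the lone library to vary like mom1. Its spread is the gap between the mom1 ratios, which have different WT partners and belong to different sets of libraries. An SE from it is therefore not the spread of mom1 replicates alone. Limma also took the ratios as independent, though those of mom1pial2 and mom1 replicate 2 share WT replicate 2. At an adjusted p under 0.05 it called 0.0% higher and 0.0% lower of 20395 genes (lowest adjusted p = 0.126). At an unadjusted p under 0.05 there were 229 higher (1.12%) and 246 lower (1.21%) genes. No other test for this comparison was run.

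The largest differences were at very short loci. Among genes that the authors' tables marked as tested (status OK) for at least 1 of the mutants, the 15 highest and the 15 lowest were all listed at 0 in 1 of the libraries, and 28 of these 30 lie at loci under 300 bases, where a single fragment is worth many FPKM. At loci of 95 to 130 bases the lowest value above 0 was 11.1 FPKM in mom1pial2 and 10.2 in mom1 replicate 2, while at loci of 490 to 510 bases it was 0.12 FPKM in mom1pial2 and 0.11 in mom1 replicate 2. The snoRNA locus AT1G75163 had 2228 FPKM in mom1pial2 and was listed at 0 in mom1 replicate 2, and the snoRNA locus AT2G05765 had 3450 FPKM in mom1 replicate 2 and was listed at 0 in mom1pial2. The microRNA precursor MIR825 had 55.3 FPKM in mom1pial2 and MIR171a had 140 FPKM in mom1 replicate 2, each listed at 0 in the other. Such values were set aside by a second rule, chosen after the values were seen, of loci of at least 300 bases with at least 5 FPKM in either mutant. It left 15003 genes, of which 25 (0.167%) were at least 2-fold higher in mom1pial2 and 29 (0.193%) at least 2-fold lower.

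For 15 of the 25 higher genes it was mom1 replicate 2 that stood apart from WT. In these 15, mom1 replicate 2 was at least 2-fold below WT replicate 2 while mom1pial2 was within 2-fold of it, and in 3 others mom1pial2 alone was at least 2-fold above WT. Of the 29 lower genes, 13 were at least 2-fold above WT replicate 2 in mom1 replicate 2 with mom1pial2 within 2-fold of WT, and 3 were at least 2-fold below WT in mom1pial2 alone. Among genes with at least 1 FPKM in the mutant or WT replicate 2, mom1 replicate 2 had 1.18% at least 2-fold above WT and 0.997% below. In mom1pial2 these shares were 1.08% and 0.862%. The 25 and 29 genes were chosen by the difference between these libraries, so large ratios to WT are frequent among them by that choice. Against mom1 replicate 1, 7 of the 25 were still at least 2-fold higher and 9 of the 29 at least 2-fold lower, while 11 of the 25 and 6 of the 29 had the opposite sign. The 2 sets of libraries differed in their clock genes. The summed level of 8 morning clock genes was 743 FPKM in mom1pial2 and 815 in mom1 replicate 2, against 154 in mom1 replicate 1. The summed level of 10 day and evening clock genes was 57.5 FPKM in mom1pial2 and 58.1 in mom1 replicate 2, against 266 in mom1 replicate 1. The part of that difference in the results against mom1 replicate 1 was not tested.

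Iron-deficiency genes were higher in mom1pial2 than in mom1 replicate 2. Plants short of iron switch on a small group of bHLH transcription factors (bHLH38, bHLH39, BHLH100 and BHLH101), which act with FRU (also called FIT) to raise the iron transporter IRT1 and the reductase FRO2. All 12 genes of the iron list were measured, all 12 were above 0 (50.5% of all genes were), and 5 were at least 2-fold higher, with a median difference of 0.64. The windows below are the 250 bases upstream of the annotated start of 3 of the bHLH genes, shown because these 3 transcription factor genes were each at least 2-fold higher in mom1pial2. The G-box CACGTG, searched on both strands, is in capitals, and 6.49% of the 27443 windows of this length before protein-coding genes hold it. bHLH38 (chr3:21085246-21085495) and BHLH100 (chr2:17199455-17199704) hold 1 match each, 91 and 85 bases before the start, and bHLH39 (chr3:21087711-21087960) holds none; all are on the minus strand of TAIR10.1 and come from RefSeq.
bHLH38: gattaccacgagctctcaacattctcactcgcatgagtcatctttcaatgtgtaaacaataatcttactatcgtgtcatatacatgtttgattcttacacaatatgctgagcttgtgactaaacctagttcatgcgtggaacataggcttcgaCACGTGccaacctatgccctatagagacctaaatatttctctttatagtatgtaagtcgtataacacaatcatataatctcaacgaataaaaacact
BHLH100: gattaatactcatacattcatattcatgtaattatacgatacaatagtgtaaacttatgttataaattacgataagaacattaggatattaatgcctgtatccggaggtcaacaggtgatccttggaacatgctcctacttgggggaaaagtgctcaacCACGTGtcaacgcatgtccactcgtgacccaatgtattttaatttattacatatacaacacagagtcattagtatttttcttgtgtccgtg
bHLH39: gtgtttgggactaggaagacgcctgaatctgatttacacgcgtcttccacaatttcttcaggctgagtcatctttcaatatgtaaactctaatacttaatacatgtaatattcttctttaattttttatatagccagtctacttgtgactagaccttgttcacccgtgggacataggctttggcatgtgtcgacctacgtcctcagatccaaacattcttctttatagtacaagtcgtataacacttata
A match of letters is a description of the window and not a binding site.

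bHLH38 had 33.0 FPKM in mom1pial2, against 7.98 in mom1 replicate 2, a difference of 1.89. It had 68.1 FPKM in pial2, against 22.4 in WT replicate 2. Levels were thus higher where PIAL2 was lost in both pairs, and mom1 replicate 2 was the lowest of these 4 libraries. bHLH39 had 28.2 FPKM in mom1pial2, against 7.34 in mom1 replicate 2, and 55.0 FPKM in pial2, against 21.2 in WT replicate 2. BHLH100 had 33.1 FPKM in mom1pial2, against 9.42 in mom1 replicate 2, and 83.3 FPKM in pial2, against 27.7 in WT replicate 2. The same order of the 4 libraries, with pial2 highest and mom1 replicate 2 lowest, held for IRT1, which had 12.8 FPKM in mom1pial2, against 4.99 in mom1 replicate 2, and 31.4 FPKM in pial2, against 9.99 in WT replicate 2. BHLH101 departed from it, with 11.3 FPKM in mom1pial2, against 5.92 in mom1 replicate 2, and 30.0 FPKM in pial2, against 30.2 in WT replicate 2. AT1G47400 had 41.2 FPKM in mom1pial2, against 11.7 in mom1 replicate 2, and its neighbour AT1G47395, which is outside the list, had 165 FPKM in mom1pial2, against 72.4 in mom1 replicate 2. The partner FRU (2.26 FPKM in mom1pial2, 2.02 in mom1 replicate 2), the reductase FRO2 (1.57 FPKM in mom1pial2, 1.42 in mom1 replicate 2) and the iron store FER1 (132 FPKM in mom1pial2, 122 in mom1 replicate 2) stood within 0.09 of each other on the log2 scale. Against mom1 replicate 1 the list's median was -0.13, with 5 of 12 above 0, and the difference was 0.21 for bHLH38, 0.14 for bHLH39 and 0.13 for BHLH100. The largest iron differences therefore did not hold against the other mom1 library, in whose table bHLH38 had 4.99 FPKM in mom1 and 3.77 in WT.

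Genes of abscisic acid signalling were lower in mom1pial2 than in mom1 replicate 2. Abscisic acid is the hormone of drought and salt stress, and the clade A protein phosphatases (HAI1, HAI2, ABI1, ABI2, HAB1) act as brakes on its signalling while their own genes are induced by it. All 17 genes of the abscisic acid, cold and drought list were measured, and all 17 were below 0 (49.5% of all genes were). Of these, 3 were at least 2-fold lower, and the list had a median of -0.31. DREB1A reached 1 FPKM through mom1 replicate 2 alone, which fixes its sign. The window of HAI2 is shown because it alone of the 3 phosphatase genes past 2-fold holds the core ACGTG of the abscisic acid response element, which 22.9% of such windows hold on either strand. HAI2 (chr1:2282829-2283078, minus strand) has 4 matches, in capitals, 2 of which lie next to each other, and the windows of HAI1 and ABI1 have none.
HAI2: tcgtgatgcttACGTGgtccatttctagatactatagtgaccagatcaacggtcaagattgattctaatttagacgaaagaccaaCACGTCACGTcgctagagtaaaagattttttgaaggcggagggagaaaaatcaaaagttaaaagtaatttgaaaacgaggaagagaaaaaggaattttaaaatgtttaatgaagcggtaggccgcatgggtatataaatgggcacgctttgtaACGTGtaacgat
No match in a window says only that these letters are absent from it.

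HAI1 had 48.9 FPKM in mom1pial2, against 124 in mom1 replicate 2, and 31.0 FPKM in pial2, against 69.5 in WT replicate 2. In the other set it had 7.16 FPKM in mom1 replicate 1, against 4.05 in WT replicate 1. HAI1 was the lowest gene of the list, with differences of -1.35 to mom1 replicate 2 and -1.19 to mom1 replicate 1. ABI1 had 73.2 FPKM in mom1pial2, against 152 in mom1 replicate 2, and 64.9 FPKM in pial2, against 85.6 in WT replicate 2. HAI2, which is outside the list, had 11.6 FPKM in mom1pial2, against 24.8 in mom1 replicate 2, and 7.31 FPKM in pial2, against 12.8 in WT replicate 2. In each of these phosphatase genes mom1 replicate 2 was the highest of the 4 libraries, and the differences to mom1 replicate 1 were -0.90 for ABI1 and -1.34 for HAI2. ABI2 and HAB1 had differences of -0.73 and -0.63 to mom1 replicate 2. By limma against both mom1 ratios HAI1 was lower by 1.27 ± 0.16 (SE, log2 scale), with an adjusted p = 1.0, so none of these passed the test.

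Biosynthesis and target genes of the hormone varied. NCED3, the rate-limiting enzyme of abscisic acid synthesis, had 15 FPKM in mom1pial2, against 32.1 in mom1 replicate 2, but against mom1 replicate 1 its difference was 0.25. LTI65 (RD29B), a classic target, had 42.2 FPKM in mom1pial2, against 73.5 in mom1 replicate 2, and P5CS1, the proline synthesis enzyme, which shares its interval with another entry, had 369 FPKM in mom1pial2, against 653 in mom1 replicate 2. Outside the list, and chosen after its values were seen, RD26, a NAC transcription factor gene of the drought response, had 23.9 FPKM in mom1pial2, against 51.3 in mom1 replicate 2. Also chosen so, the E3 ligase genes AIRP2 and PUB19 and the F-box gene EDL3 had 22.6, 23.2 and 2.78 FPKM in mom1pial2, against 46.3, 55.2 and 8.77 FPKM in mom1 replicate 2. The other 10 members, which are cold-regulated genes, their CBF regulators and RAB18, ran from -0.37 at DREB1A (0.85 FPKM in mom1pial2, 1.37 in mom1 replicate 2) to -0.05 at COR47 (524 FPKM in mom1pial2, 533 in mom1 replicate 2). The list's median against mom1 replicate 1 was -0.44, with 12 of 17 below 0.

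**Figure D3:**
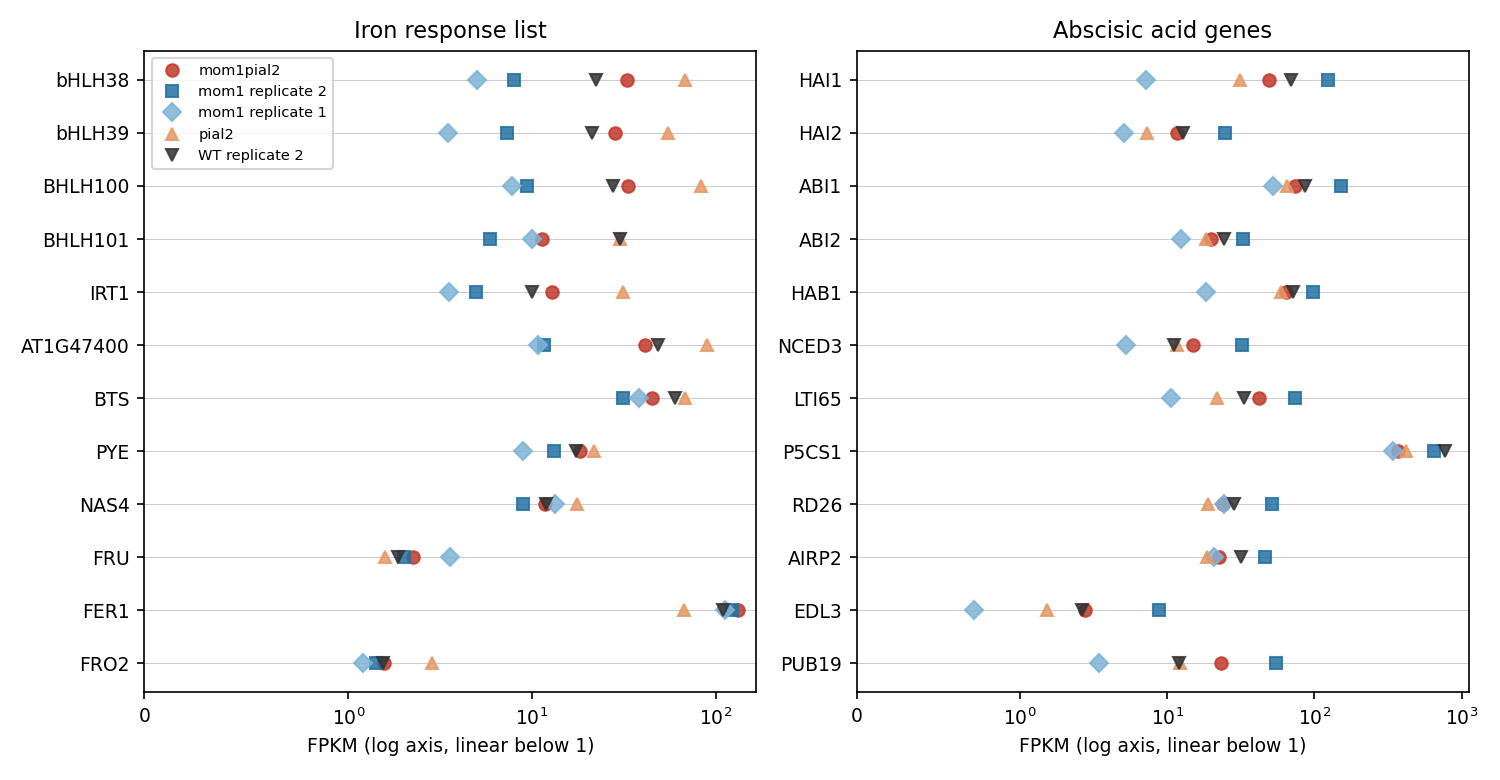
FPKM of the 12 iron list genes (left) and of 12 abscisic acid genes (right) in mom1pial2, mom1 replicate 2, mom1 replicate 1, pial2 and WT replicate 2, on an axis that is logarithmic above 1 and linear below. For bHLH38 the red circle of mom1pial2 (33.0) lies right of the dark blue square of mom1 replicate 2 (7.98), and for HAI1 it lies left of it (48.9 and 124).

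Among the longer, expressed loci that were not listed at 0 in either mutant, ERF9 had the lowest difference, and it was low in every library with a pial mutation. ERF9 (AT5G44210, chr5:17806472-17807534) encodes an ethylene response factor of the repressor type. It had 0.30 FPKM in mom1pial2, against 5.33 in mom1 replicate 2 and 4.67 in mom1 replicate 1. It had 0.12 FPKM in pial2, against 4.08 in WT replicate 2, and 0.23 FPKM in pial1/2, against 4.49 in WT replicate 1. The nrpe1 library had 4.2 FPKM. The 3 libraries with a pial mutation lay between 0.12 and 0.30 FPKM and the other 5 between 4.08 and 5.33. The share of all genes that part these libraries in the same way is not given here, so how common such a split is remains unknown. ERF9 was described for its low difference. It reached 1 FPKM through mom1 replicate 2 alone of the compared mutants, which fixes the sign of that difference. The difference was -2.30 to mom1 replicate 2 and -2.01 to mom1 replicate 1, and by limma it was -2.15 ± 0.20 (SE) with an adjusted p = 0.685. In the authors' deposited tables its q-value was 4.4e-07 in mom1pial2 and 1.0 in mom1 replicate 2. ERF9 lies 1175689 bases from PIAL2 on chromosome 5. The 220 measured genes between them had a median difference of 0.03, with 1 at least 2-fold lower and 0 higher.

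**Figure D4:**
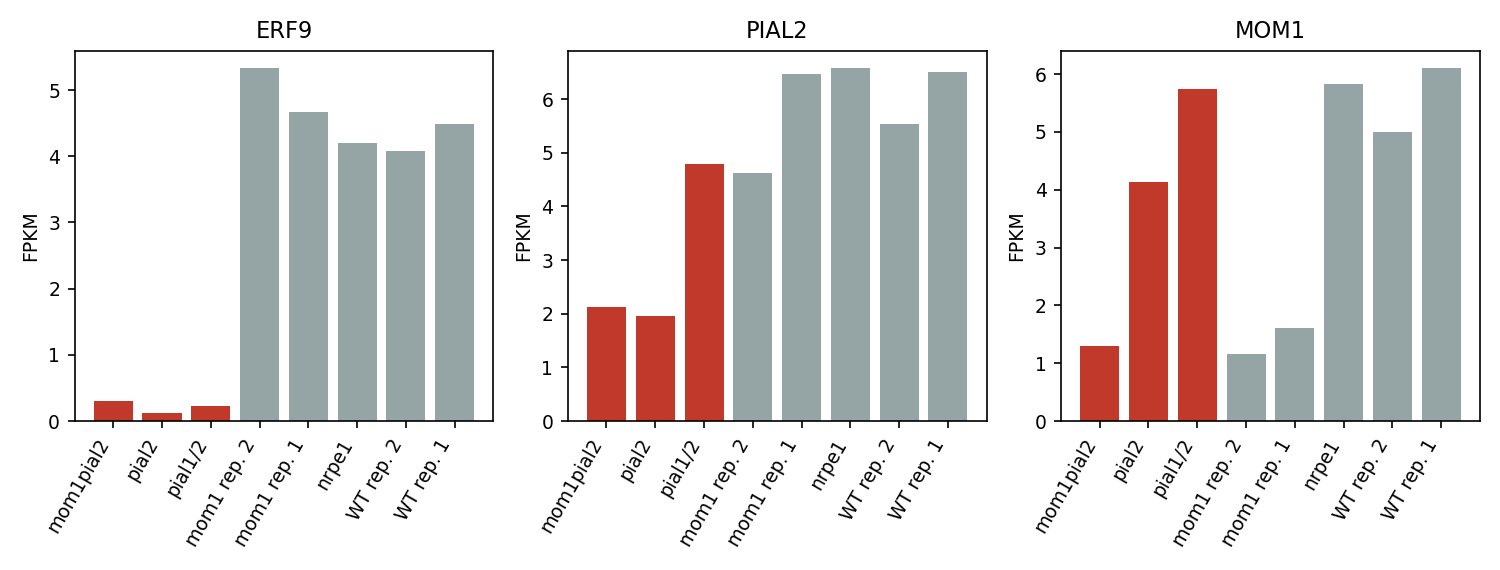
FPKM of ERF9, PIAL2 and MOM1 as bars in all 8 libraries, with the libraries that carry a pial mutation in red and the rest in grey. ERF9 lies between 0.12 and 0.30 FPKM in the red bars and between 4.08 and 5.33 in the grey bars, while PIAL2 itself is lowest in mom1pial2 (2.13) and pial2 (1.96).

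Genes called in pial2 were compared next, since pial2 over WT replicate 2 and mom1pial2 over mom1 replicate 2 have no library in common. In the authors' deposited table of pial2, the entries called up (0.844% of those tested) had a median difference of 0.16 over 171 measured genes. Of the 171, 11 (6.43%) were at least 2-fold higher in mom1pial2 and 1 (0.585%) was at least 2-fold lower. Over all genes compared, 0.513% were at least 2-fold higher and 0.563% at least 2-fold lower. The 11 were bHLH38, bHLH39, BHLH100, IRT1, AT1G47400, AT1G47395, WRKY40, RRTF1, AT4G29780, AT1G12030 and AT1G13609. The first 5 of these belong to the iron list, so the 11 are not independent of each other. Entries called down there (1.6% of those tested) had a median of -0.00 over 324 measured genes, with 7 (2.16%) at least 2-fold higher and 9 (2.78%) lower. The 9 lower ones were ERF9, HAI1, HAI2, AIRP2, TPS11, MAF5, PNP-A, AT2G21820 and AT1G73480, and the 7 higher ones included CYP705A5, CRU3, OLEO2 and SESA2. CRU3, OLEO2 and SESA2 reached 1 FPKM through mom1pial2 alone, and ERF9 and MAF5 through mom1 replicate 2 alone, which fixes their sign. Of the 324 genes, 11 passed through mom1pial2 alone and 5 through mom1 replicate 2 alone. Of the called-up genes 121 (70.8%) were above 0, where 50.5% of all genes were, and of the called-down genes 162 were above 0 and 162 below. Among the 171 called-up genes, 4 passed through mom1pial2 alone and 2 through mom1 replicate 2 alone. With mom1 replicate 1 as the reference the medians were 0.33 for called-up and -0.53 for called-down genes, but WT replicate 2 then stays in the difference and is shared with the pial2 table, so nothing is read from these values. Of the 25 higher genes at longer loci, 9 were at least 2-fold higher in pial2 as well and 4 were at least 2-fold lower. Of the 29 lower genes 3 were at least 2-fold lower in pial2 and 5 were at least 2-fold higher. Among all genes with at least 1 FPKM in pial2 or WT replicate 2, 0.736% were at least 2-fold higher in pial2 and 0.847% lower.

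Rapid stress regulators were among those that held against both mom1 libraries, though both differences use the same single mom1pial2 library. WRKY40 (chr1:30383691-30387522), a WRKY repressor of defence, had 14.5 FPKM in mom1pial2, against 5.0 in mom1 replicate 2 and 4.59 in mom1 replicate 1, and 22.8 FPKM in pial2, against 4.36 in WT replicate 2. RRTF1, an ERF of the redox response, had 7.50 FPKM in mom1pial2, against 2.62 in mom1 replicate 2 and 0.58 in mom1 replicate 1, and 2.89 FPKM in pial2, against 0.28 in WT replicate 2. The intervals of both genes overlap another entry of the tables, so their reads may be split. By limma WRKY40 was higher by 1.41 ± 0.16 (SE) with an adjusted p = 0.91. The list of 13 rapid stress transcription factors had a median of 0.01 with 2 at least 2-fold higher and 0 lower, and WRKY33 had 38.2 FPKM in mom1pial2 and 25.9 in mom1 replicate 2. At AT4G29780, mom1pial2 had 13.1 FPKM, against 4.59 in mom1 replicate 2 and 6.65 in mom1 replicate 1.

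The triterpene and sulfate lists stood higher in mom1pial2 against mom1 replicate 2 and lower against mom1 replicate 1. The 7 genes of the thalianol and marneral clusters, which make root triterpenes, had a median of 0.79, with 7 of 7 above 0 (50.5% of all genes were). Of the 7, 1 reached 1 FPKM through mom1pial2 alone, which fixes its sign. CYP705A5, a thalianol enzyme, had 19.1 FPKM in mom1pial2, against 8.16 in mom1 replicate 2, and 9.24 FPKM in pial2, against 35.3 in WT replicate 2. THAS1, the thalianol synthase, had 7.66 FPKM in mom1pial2, against 3.64 in mom1 replicate 2, and 3.45 FPKM in pial2, against 14 in WT replicate 2. Both were higher without PIAL2 in the mom1 background and lower in the WT background. The sulfate starvation list (7 genes) had a median of 0.43, led by ATSDI1 with 52.7 FPKM in mom1pial2, against 26.9 in mom1 replicate 2. Against mom1 replicate 1 the medians were -0.88 and -0.76 for these lists, so their direction depended on the mom1 library. The 10 root markers summed to 125 FPKM in mom1pial2, against 92.1 in mom1 replicate 2 and 85.2 in mom1 replicate 1. In pial2 they summed to 101 FPKM, against 129 in WT replicate 2, and none was at 0. Of the 10 markers, 9 were above 0 against mom1 replicate 2 (50.5% of all genes were), and 1 marker reached 1 FPKM through mom1 replicate 2 alone. Their median difference was 0.33 to mom1 replicate 2 and 0.03 to mom1 replicate 1. The part of root content in the root-expressed clusters was not tested.

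Seed storage transcripts were low in all libraries and differed between them. The 12 seed markers, which belong to the embryo programme, summed to 17 FPKM in mom1pial2, against 5.88 in mom1 replicate 2, and to 3.60 FPKM in pial2, against 33.8 in WT replicate 2. They summed to 2.39 FPKM in mom1 replicate 1, against 1.69 in WT replicate 1. Only 7 of the 12 reached 1 FPKM, 4 of them through mom1pial2 alone, so that the 3 past 2-fold (CRU3, OLEO2 and SESA2) are no measure of the list. CRU3, a cruciferin, had 2.80 FPKM in mom1pial2, against 0.25 in mom1 replicate 2, and 0.05 FPKM in pial2, against 3.24 in WT replicate 2. SESA2 was listed at 0 in mom1 replicate 2, where 5 of the 12 markers were at 0, and 0 of the 12 were at 0 in mom1pial2. Their part in other differences was not tested.

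Of 12 flowering time genes 9 were measured, and 4 of these, FLC, MAF4, MAF5 and CO, reached 1 FPKM through mom1 replicate 2 alone, which fixes their sign. The other 5 had differences from -0.32 at AGL20 to -0.06 at MAF3. MAF5, a floral repressor related to FLC, had 0.69 FPKM in mom1pial2, against 2.35 in mom1 replicate 2 and 4.09 in mom1 replicate 1, and 1.46 FPKM in pial2, against 5.60 in WT replicate 2. FLC had 0.67 FPKM in mom1pial2, against 1.72 in mom1 replicate 2, and 2.41 FPKM in pial2, against 4.07 in WT replicate 2. MAF4 had 0.74 FPKM in mom1pial2, against 1.69 in mom1 replicate 2. The mom1pial2 library was the lowest of the 4 for each of these 3 repressors, and their differences to mom1 replicate 1 were -1.88 for MAF5, -0.84 for FLC and -1.42 for MAF4. The 12 nuclear photosynthesis genes had a median of -0.28, with 9 below 0 (49.5% of all genes were), 3 above and 0 past 2-fold. RBCS1A, the Rubisco small subunit gene, was highest at 0.07, and LHCB4.2, an antenna protein gene, was lowest, with 1462 FPKM in mom1pial2 and 2126 in mom1 replicate 2, at an interval it shares with another entry.

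Other defence and growth genes are given by their extremes. PR1, the marker of salicylic acid defence, had 1.68 FPKM in mom1pial2, against 5.90 in mom1 replicate 2 and 20.9 in mom1 replicate 1, and no other of the 11 measured genes of that list passed 2-fold. PDF1.2, a jasmonate-induced defensin, had 2.27 FPKM in mom1pial2, against 0.45 in mom1 replicate 2. TCH2, a calmodulin-like touch gene, had 172 FPKM in mom1pial2, against 85 in mom1 replicate 2. RVE1, a clock-linked regulator, had 36.2 FPKM in mom1pial2, against 59.8 in mom1 replicate 2. The copper, phosphate starvation, nitrate, heat, starch, flavonoid, glucosinolate, hypoxia, B-type cyclin, shade, clock and sugar starvation lists had 0 members past 2-fold in either direction, with medians from -0.24 to 0.20.

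**Figure D5:**
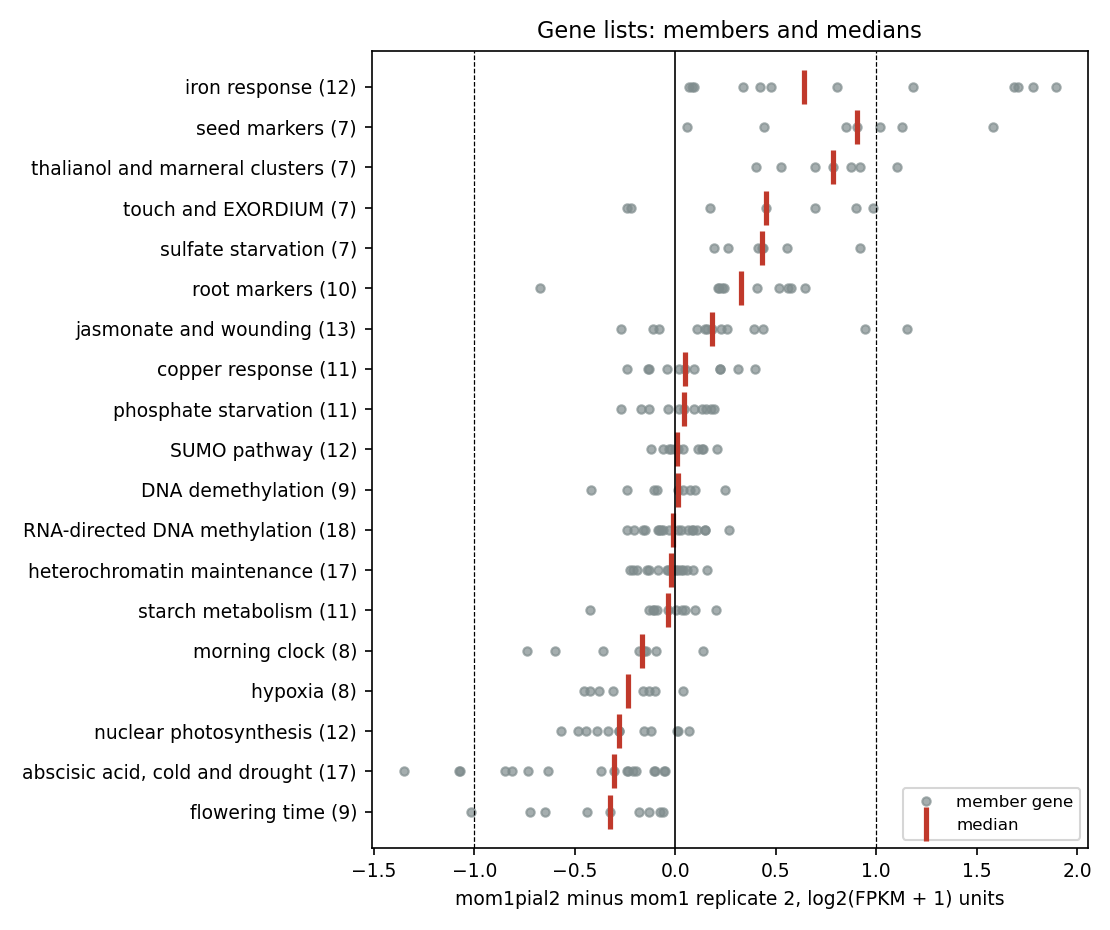
Difference between mom1pial2 and mom1 replicate 2 on the log2(FPKM + 1) scale for the measured members (grey points) of 19 gene lists, with the list median as a red bar, dashed lines at 2-fold and the number measured in brackets. The iron list sits right of 0 (median 0.64) and the abscisic acid list left of it (median -0.31), while the silencing lists lie around 0.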

How the data were processed

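Poly(A)-enriched RNA of whole seedlings was sequenced in 8 libraries. Per the submitters' processing notes, TopHat2 2.0.12, Bowtie, Cufflinks 2.2.1 and Cuffdiff were used with TAIR10. Per the file headers, each of the 6 deposited tables sets 1 mutant library against 1 WT library and holds FPKM values, the authors' test status, p-values and q-values per gene. FPKM are not counts, so library depth is not known and no interval for counting error is given. The labels do not say whether replicates came from separate cultures.

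Ratios were log2 of mutant over WT within a table after adding 1 FPKM to each, and the difference is the mom1pial2 ratio minus the mom1 replicate 2 ratio. Limma 3.58.1 (R 4.3.3) tested the mom1pial2 ratio against both mom1 ratios with 1 residual degree of freedom and Benjamini-Hochberg adjustment over all genes tested, and the script was tested on simulated data. Tables were handled in Python 3.11.15. Named genes are the mutated genes, the 15 highest and 15 lowest differences, the 12 highest ratios among entries called up in mom1 replicate 1, and 2 to 4 members of each list with the largest absolute differences. All genes at least 2-fold apart at longer, expressed loci, and list members shown beside these, were added after the values were seen. The members and the 32 gene lists were chosen with earlier results of these data known. Gene names come from RefSeq, which matched 33389 of 34133 entries, and promoter windows from its TAIR10.1 assembly. Intervals of 5384 entries coincide with another entry's. Pseudocount, filters, centring, scaling and the mom1 replicate were varied.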

Additional observations from a re-analysis of the deposited data

Results flagged for a closer look

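At 9 genes at longer, expressed loci mom1pial2 over mom1 and pial2 over WT were both at least 2-fold apart with opposite signs. Of these, 5 were listed at 0 in a library and the other 4, above 0 in all 4 libraries, are given here. Values are the difference between mom1pial2 and mom1 replicate 2 for the mom1 background, and the log2 ratio of pial2 over WT replicate 2 for the WT background. CYP705A5 had 1.1 in the mom1 background and -1.82 in the WT background. AT1G14960 had 1.04 in the mom1 background and -1.42 in the WT background, with 13.6 FPKM in mom1pial2, 6.0 in mom1 replicate 2, 8.25 in pial2 and 23.8 in WT replicate 2. AT5G37990 had 1.05 in the mom1 background and -1.22 in the WT background, with 23.4 FPKM in mom1pial2, 10.5 in mom1 replicate 2, 11.1 in pial2 and 27.3 in WT replicate 2. AT4G27657 had -1.06 in the mom1 background and 1.2 in the WT background, with 17.3 FPKM in mom1pial2, 36.4 in mom1 replicate 2, 30.3 in pial2 and 12.7 in WT replicate 2. Each background has 1 library a genotype here, and the difference between the backgrounds was not tested.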

How the results depend on the processing

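Genes at least 2-fold higher in mom1pial2 numbered 102, and 201 with a pseudocount of 0.1, 60 at 5 FPKM or more and 72 with test status OK in both tables. They numbered 198 against mom1 replicate 1, and 25 at loci of at least 300 bases with at least 5 FPKM. Genes at least 2-fold lower numbered 112, and 167 with a pseudocount of 0.1, 67 at 5 FPKM or more and 69 with test status OK in both tables. They numbered 274 against mom1 replicate 1, and 29 at the longer, expressed loci. The rule on longer loci was chosen after seeing the data. Limma called 0 genes in every setting, with a lowest adjusted p of 0.0573 to 1.0 over the alternatives.

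With mom1 replicate 1 in place of replicate 2, and genes filtered on that library, the medians were -0.54 for entries called up in mom1 replicate 1, -0.22 for those of pial1/2, -0.24 for nrpe1, 0.33 for pial2, -0.038 for the transposon class and 0.023 for other pericentromeric genes. Among the lists they were -0.13 for iron, -0.44 for abscisic acid, -0.82 for seed, -0.88 for thalianol and marneral, 0.028 for root, -0.76 for sulfate, -0.25 for flowering and -0.14 for photosynthesis. The abscisic acid median was -0.52 with a pseudocount of 0.1. The flowering median was -0.19 without a filter and -0.13 at 5 FPKM or more, and that of other pericentromeric genes was 0 and 0.0058. No seed gene was left at 5 FPKM or more. Of 49 named genes, centring and direct scaling left all 49 within the criterion, and a pseudocount of 0.1 left 42. Of 48 with a value against mom1 replicate 1, 19 had the opposite sign there, and none stayed within the criterion. That criterion is set by the gap between the mom1 replicates, which is also what a change of reference adds. Even MRU1, at 0.233 and 0.240, did not meet it, so nothing is read from that count. Of the 19, 9 were under 2-fold from mom1 replicate 2 and 10 were at least 2-fold from it, namely AT1G13608 (-0.44), AT1G13609 (-0.42), AT1G47395 (-0.76), AT1G47400 (-0.59), PUB19 (0.28), NCED3 (0.25), CAF1a (-0.74), IRT1 (-0.13), CRU3 (-0.19) and CYP705A5 (-0.88). The cause was not tested.

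No paired analysis was possible because mom1pial2 has 1 library and shares fewer than 2 replicate numbers with mom1. Leaving out a mom1 replicate leaves limma no residual degrees of freedom, so that fit was not run. Depth is unknown, and values near 1 fragment at short loci limit what the largest differences show.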

Other observations

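At the longer, expressed loci 7 genes were at least 2-fold higher and 9 at least 2-fold lower than both mom1 ratios, and those not described above are given as values, chosen after they were seen. AT2G17660 had 10.7 FPKM in mom1pial2, 3.70 in mom1 replicate 2 and 1.22 in mom1 replicate 1, with differences of 1.30 and 2.29. AT5G01881, AT5G11425 and MIR472 share their intervals with other entries and had differences to mom1 replicate 2 of 2.98, 1.48 and 3.24. AT5G57650 had 5.86 FPKM in mom1pial2 and was listed at 0 in both mom1 libraries and in WT replicate 2. DIP2 had 11 FPKM in mom1pial2, 32.4 in mom1 replicate 2 and 5.53 in mom1 replicate 1, with differences of -1.5 and -1.86. AT1G73480 had 41.5 FPKM in mom1pial2, 83.3 in mom1 replicate 2 and 69.6 in mom1 replicate 1, with differences of -1.02 and -1.16. AT2G21820 had 21.3 FPKM in mom1pial2, 45.6 in mom1 replicate 2 and 5.69 in mom1 replicate 1, with differences of -1.09 and -1.27. AT4G31030 and AT3G42090.1 were listed at 0 in mom1pial2 and in WT replicate 2.

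CAF1a and AT1G13608 were higher than mom1 replicate 2 only. CAF1a had 34.8 FPKM in mom1pial2 and 15.5 in mom1 replicate 2. AT1G13608 had 18 FPKM in mom1pial2 and 3.02 in mom1 replicate 2.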
